A study of Mus musculus with 9 samples.

Results

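Tetraspanin genes were followed across 3 transplanted mouse mammary tumour lines. The members were chosen by gene symbol, as Tspan followed by a number or as Cd9, Cd37, Cd53, Cd63, Cd81, Cd82, Cd151, Upk1a or Upk1b, among array features whose annotation names a single gene. This gave 28 of the 19938 genes measured. Where a gene has several features the one with the highest mean over the 9 arrays would stand for it, but each of the 28 had 1 feature, so no measured value decided the membership. The family was nevertheless taken up with an earlier result in view, the low Tspan6 signal of NDL against Met1, which is therefore given as a description of a known difference. Tspan7, the closest relative of Tspan6, was not analysed here.

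The samples were 9 pieces of snap-frozen tumour measured on Affymetrix Mouse Gene 1.0 ST arrays, with 3 from each of the lines NDL, Met1 and SSM2. Cells grown in culture had been injected into uncleared mammary fat pads on both sides of female mice 6 to 8 weeks old, given as FVB/NJ in the protocol and FVB/N in the sample labels. Tumours were taken at a width of 5 to 10 mm. No drug treatment is named in the labels, and all groups share the host strain, sex and site. As background, NDL derives from a tumour driven by an activated ErbB2 (neu) transgene under a mammary tumour virus promoter, Met1 from one driven by polyoma middle T under the same kind of promoter, and SSM2 from a hormone receptor-positive mammary tumour. Each line is 1 cell line, so a difference between lines cannot be told apart from the particular tumour the line came from. The labels do not say that the samples of a line came from separate mice, so p-values measure the spread between these samples, which may be technical.

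Tetraspanins are small membrane proteins that pass repeatedly through the membrane and carry a large extracellular loop with a conserved cysteine motif. They gather integrins, proteases, immunoglobulin-type receptors and one another into membrane microdomains, and several are standard markers of extracellular vesicles. In epithelial tumours members have been linked to adhesion, migration and receptor shedding, and some are restricted to leukocytes or to the urothelium. Values below are log2 signals made by the authors with RMA. A difference between lines is a log2 difference from limma, with its standard error (SE), and it passed the test when its p, adjusted over all genes measured, was under 0.05. Signals of different genes are not compared with each other, since each feature has its own probes.

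On these arrays the 25th percentile of gene means was 4.91 and the median 6.45, and 3 Y-linked genes, which a female host should not express, had signals of 2.61 to 3.85. The upper quartile of signal was 7.85 and 7.84 in NDL replicates 1 and 2 and between 7.98 and 8.09 in the other 7 arrays. Of the 28 tetraspanin genes, 22 had a mean above the median gene. Arrays of a line correlated across genes, which are not independent replicates, with r of at least 0.947 (NDL), 0.987 (Met1) and 0.962 (SSM2). The epithelial label of the tumours was checked on 5 markers (Epcam, Krt8, Krt18, Cdh1 and Cldn7), all measured. The log2 of their summed signal ran from 13.55 to 13.72 in NDL and 13.72 to 14.43 in SSM2, but from 9.12 to 10.81 in Met1. All 5 markers were lower in Met1 than in either other line, and within Met1 replicate 3 was lowest. SSM2 replicate 3 stood apart from its line for several members. Where a comparison gained or lost its call without that array, the result without it is also given.

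Of the 28 tetraspanin genes, 12 passed the test in at least 1 of the 3 comparisons, against 28.7% of all genes, and 16 passed in none. Between NDL and Met1 7 members passed, against 19.1% of all genes: 3 were higher in NDL (Tspan1, Tspan8 and Tspan15, against 8.88% of all genes) and 4 lower (Tspan2, Tspan5, Tspan6 and Tspan32, against 10.2%). Between NDL and SSM2 9 passed, against 16.9%: 6 were higher in NDL (Tspan8, Tspan15, Cd81, Tspan5, Tspan3 and Tspan31, against 9.35%) and 3 lower (Upk1b, Tspan6 and Tspan17, against 7.52%). Between Met1 and SSM2 8 passed, against 11.8%: 7 were higher in Met1 (Tspan5, Tspan2, Tspan6, Tspan15, Tspan32, Tspan3 and Tspan31, against 7.1%), and Upk1b alone was lower, against 4.71%. The 4 members lower between NDL and Met1 include Tspan6, whose difference prompted the choice of the family and counts here as a description. The Tspan6 calls against SSM2 use the same NDL or Met1 arrays, so they are not independent of that difference. The background depends on NDL replicate 3. Without it 16.9% of all genes were higher and 16.4% lower in NDL than in Met1, with 3 and 4 members, and 20% were higher and 15.2% lower in NDL than in SSM2, with 6 and 2 members. At those shares the member counts of NDL against Met1 lay below the background and the 6 higher ones against SSM2 near it. The comparisons share arrays pair by pair, so their calls are not independent of each other. The median difference over the 28 members was 0.01 for NDL minus Met1, 0.29 for NDL minus SSM2 and 0.19 for Met1 minus SSM2, beside medians over all genes of 0.06, 0.09 and 0.04.

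Since genes with more signal pass more often, the same counts were read over genes above the median mean. That mean covers all 9 arrays, so a gene can enter through the line where it is high. Tspan8 entered so, with NDL at 9.32 above the median of 6.45 and Met1 (5.03) and SSM2 (5.72) below it. The shares are therefore descriptions. Among genes above the median, 6 of 22 members passed between NDL and Met1, against 30.4% of such genes. Between NDL and SSM2 8 of 22 passed, against 25.9%, and between Met1 and SSM2 6 of 22, against 18.9%. Between NDL and Met1 the share of members (27.3%) thus lay near the background, and no test of the shares was made. The 6 members passing there include Tspan6, whose difference is given as a description.

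**Figure D1:**
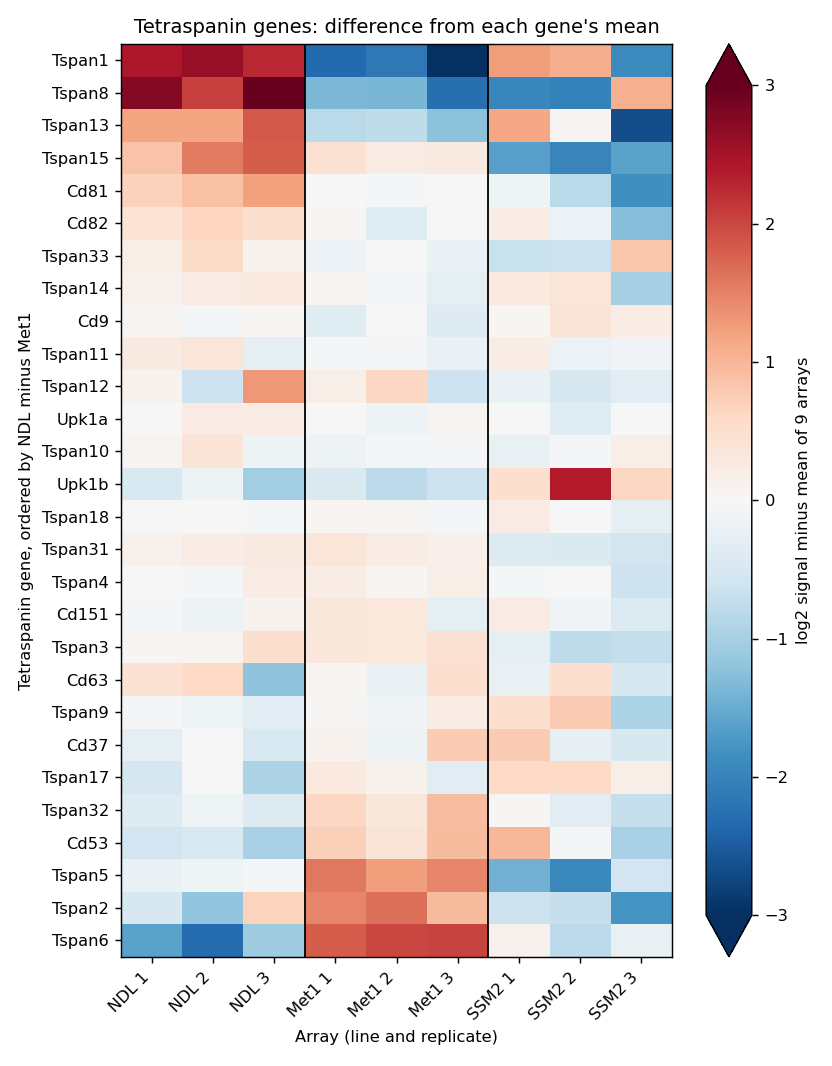
Each row is 1 of the 28 tetraspanin genes and each column 1 array, and colour gives the log2 signal minus that gene's mean over the 9 arrays, cut at 3 in either direction. Rows are ordered by the NDL minus Met1 difference, so Tspan1 (5.00) stands at the top and Tspan6 (-3.61) at the bottom, while most rows between them are pale in every line.

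Members were also counted where they passed against both other lines. Tspan8 and Tspan15 were above both in NDL, as were 5.13% of all genes, and Tspan6 was below both, as were 3.59%. Tspan2, Tspan5, Tspan6 and Tspan32 were above both in Met1, against 4.09%, and no member was below both there, against 2.18%. The places of Tspan6 in NDL and in Met1 both need its known difference between these lines, so they are descriptions. Upk1b was above both in SSM2, against 1.91%, and Tspan3, Tspan5, Tspan15 and Tspan31 were below both, against 2.26%. Tspan5 and Tspan15 passed in all 3 comparisons, each with its own order of the lines, and Tspan6 in both comparisons with SSM2.

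The 4 members with the largest differences in any comparison were Tspan1, Tspan8, Tspan6 and Tspan15, and their promoter windows are shown because Tspan1 and Tspan8 were both high in NDL and low in Met1, Tspan6 had the opposite order, and Tspan15 was highest in NDL and lowest in SSM2. The windows are RefSeq's for GRCm38.p6, from 250 bases before to 50 bases after the annotated start, and are given 5′ to 3′ on the gene's strand. RefSeq windows were at hand for 26 of the 28 members. Capitals mark CACCTG or its reverse complement CAGGTG, the E-box that repressors of epithelial genes such as Snai1 and Zeb1 are known to bind. These are Tspan1 at chr4:116167549-116167848 (minus strand), Tspan8 at chr10:115817034-115817333 (plus strand), Tspan6 at chrX:133898380-133898679 (minus strand) and Tspan15 at chr10:62231169-62231468 (minus strand).
Tspan1: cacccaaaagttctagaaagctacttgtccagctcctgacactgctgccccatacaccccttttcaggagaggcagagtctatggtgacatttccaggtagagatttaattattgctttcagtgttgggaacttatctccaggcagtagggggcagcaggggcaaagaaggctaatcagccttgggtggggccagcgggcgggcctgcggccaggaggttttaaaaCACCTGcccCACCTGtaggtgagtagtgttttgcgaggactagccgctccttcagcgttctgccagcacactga
Tspan8: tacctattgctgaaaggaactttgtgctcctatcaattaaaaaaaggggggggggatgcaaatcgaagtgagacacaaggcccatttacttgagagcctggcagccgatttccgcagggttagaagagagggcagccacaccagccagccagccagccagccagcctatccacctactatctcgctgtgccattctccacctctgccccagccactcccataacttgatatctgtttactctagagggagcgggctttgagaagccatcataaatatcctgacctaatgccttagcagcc
Tspan6: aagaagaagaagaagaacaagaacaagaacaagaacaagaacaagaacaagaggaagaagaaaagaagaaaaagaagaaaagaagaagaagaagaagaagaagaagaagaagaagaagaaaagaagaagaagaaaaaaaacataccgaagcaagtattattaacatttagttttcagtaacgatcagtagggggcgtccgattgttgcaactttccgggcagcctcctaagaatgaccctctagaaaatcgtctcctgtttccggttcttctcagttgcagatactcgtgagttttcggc
Tspan15: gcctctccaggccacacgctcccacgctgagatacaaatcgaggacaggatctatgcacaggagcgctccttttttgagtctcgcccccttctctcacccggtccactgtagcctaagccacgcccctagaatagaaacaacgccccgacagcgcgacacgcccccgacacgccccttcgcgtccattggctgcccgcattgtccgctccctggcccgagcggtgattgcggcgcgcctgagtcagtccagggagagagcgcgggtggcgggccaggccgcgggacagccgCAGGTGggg
The Tspan1 window holds 2 copies of the E-box, the first base of each lying 24 and 15 bases before the start, and Tspan15 holds 1 copy that begins at base 42 after it. The Tspan8 and Tspan6 windows hold none. Over all 32851 RefSeq windows, 20.2% hold at least 1 copy on either strand, as do 10 of the 36 windows of tetraspanin genes. The Tspan6 window has a GC content of 38.3%, against 66.3% in Tspan15, 54.0% in Tspan1 and 51.7% in Tspan8. A match describes these letters only.

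Tspan1 and Tspan8 are tetraspanins of secretory and lining epithelia, and Tspan13, more broadly expressed, was listed with them. All had their highest mean in NDL. Tspan1 (feature 10515282) stood at 10.00, 10.17 and 9.83 in NDL replicates 1 to 3, at 5.23, 5.43 and 4.34 in Met1, and at 8.82, 8.65 and 5.65 in SSM2. NDL and Met1 lay far apart, and in SSM2 replicates 1 and 2 approached NDL while replicate 3 was near Met1. Tspan1 was 32.0-fold higher in NDL than in Met1 (log2 difference 5.00, SE 0.75, adjusted p = 0.00249). Against SSM2 it did not pass, from NDL (2.29, SE 0.75, adjusted p = 0.0722) or from Met1 (-2.71, adjusted p = 0.0535), although no arrays overlapped between lines. Without SSM2 replicate 3 both passed, at 1.26 (adjusted p = 0.0285) and -3.74 (adjusted p = 0.000334).

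Tspan8 (feature 10366446), known for its part in cell migration and in vesicles shed by gut and pancreatic tumours, stood at 9.44, 8.73 and 9.79 in NDL. It stood at 5.35, 5.31 and 4.43 in Met1 and at 4.73, 4.66 and 7.76 in SSM2. All NDL arrays were above all others, and SSM2 replicate 3 was again the odd array of its line, this time high where the other SSM2 arrays were low. Tspan8 was 19.6-fold higher in NDL than in Met1 (log2 difference 4.29, SE 0.77, adjusted p = 0.00573). Over SSM2 the NDL mean was 12.2-fold higher (3.61, SE 0.77, adjusted p = 0.0155). The latter was 4.63 without SSM2 replicate 3 (adjusted p = 0.000228) and did not pass without NDL replicate 1 (adjusted p = 0.0589) or SSM2 replicate 2 (adjusted p = 0.0519). With NDL and SSM2 alone it did not pass either (adjusted p = 0.0551). Between Met1 and SSM2 no direction was found, since the difference was -0.69 with a 95% interval from -2.45 to 1.07, and 0.33 without SSM2 replicate 3. The Met1 means of Tspan1 (5.00) and Tspan8 (5.03) lay close to the 25th percentile of gene means, and Tspan8 in SSM2 replicates 1 and 2 lay below it.

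Tspan13, also called NET-6, stood at 11.21, 11.19 and 11.85 in NDL, 9.20, 9.26 and 8.79 in Met1, and 11.19, 10.11 and 7.37 in SSM2. The SSM2 arrays ran from the NDL level to below Met1, an SD of 1.97. Tspan13 did not pass in any comparison with all arrays (NDL minus Met1 2.33, SE 0.81, adjusted p = 0.0817). The SE is pooled over the 3 lines, and the SDs of NDL and Met1 were 0.38 and 0.26. The NDL minus Met1 difference had an adjusted p of 0.0017 in limma without SSM2 replicate 3 and 0.0366 without SSM2 replicate 1. With NDL and Met1 alone it was 0.00122. Met1 minus SSM2 passed without replicate 3 (-1.56, adjusted p = 0.0239), and NDL minus SSM2 passed without replicate 1 (2.68, adjusted p = 0.0447). The epithelial markers moved with these genes between NDL and Met1, as given above, and Krt8 itself stood at 12.24, 12.30 and 11.85 in NDL against 8.45, 8.41 and 6.81 in Met1. In SSM2 replicate 3 their summed signal was the highest of all arrays (14.43) while Tspan1 and Tspan13 were the lowest of the line there and Tspan8 the highest. The part of the epithelial share in these differences was not tested, and in bulk samples fewer epithelial cells and less RNA per cell cannot be told apart.

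**Figure D2:**
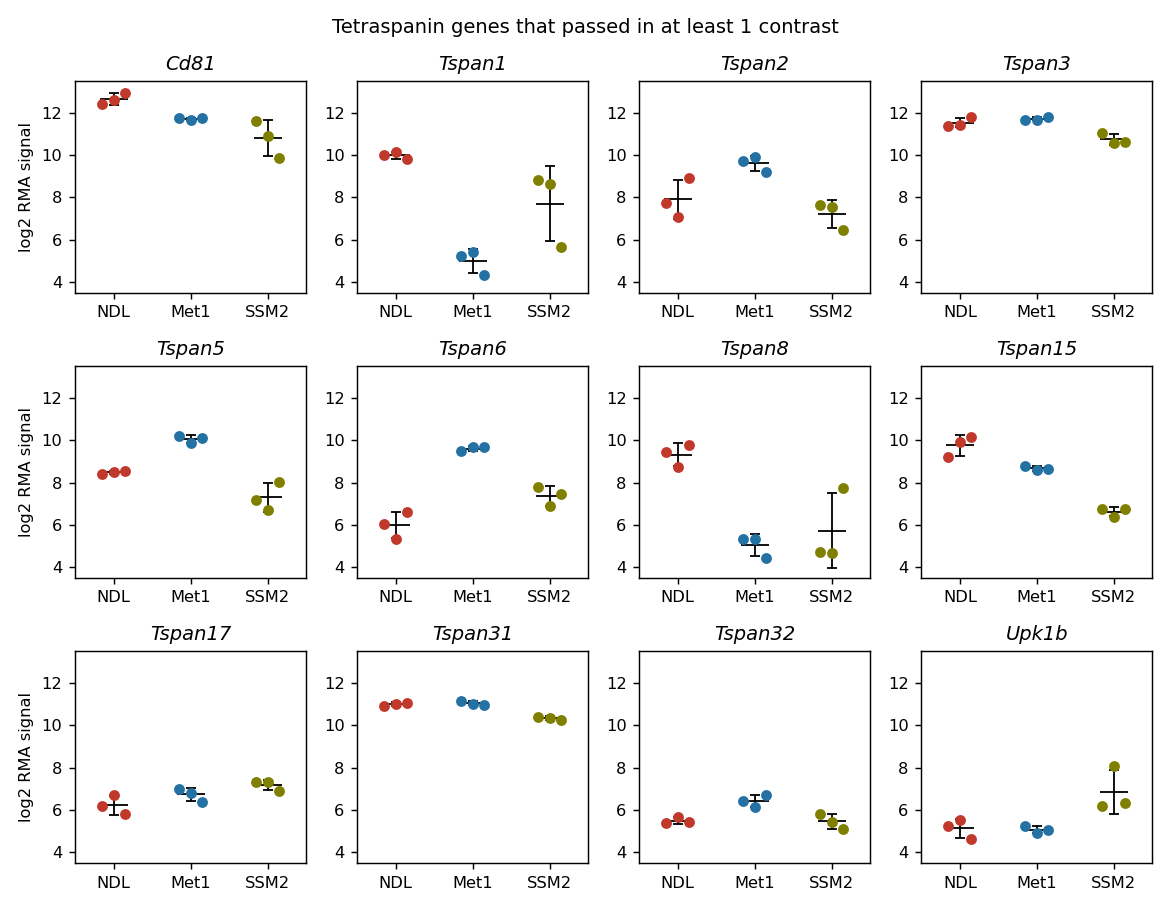
Log2 RMA signal of the 12 tetraspanin genes that passed in at least 1 comparison, by line. Dots are the 3 arrays of a line from replicate 1 on the left to replicate 3 on the right, dashes the mean and bars the SD. Tspan1 and Tspan8 show SSM2 replicate 3 apart from the other SSM2 arrays, at 5.65 and 7.76, while Tspan31 shows narrow groups with SSM2 below both other lines.

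Tspan6 (feature 10606609), on the X chromosome, is reported to restrain antiviral signalling from RIG-I-like receptors. It stood at 6.06, 5.35 and 6.59 in NDL, at 9.47, 9.67 and 9.68 in Met1, and at 7.79, 6.87 and 7.44 in SSM2. The 3 lines formed separate groups without overlap, Met1 highest and NDL lowest. The NDL mean was 12.2-fold below that of Met1 (log2 difference -3.61, SE 0.32), the known difference with which the family was taken up, given here as a description. Met1 was 4.71-fold above SSM2 (2.24, SE 0.32, adjusted p = 0.00318) and NDL 2.58-fold below SSM2 (-1.37, SE 0.32, adjusted p = 0.0232). Each of these shares its Met1 or NDL arrays with the known difference and is not independent of it. The difference between Met1 and SSM2 passed in every fit with 1 array left out. The NDL minus SSM2 difference did not pass without NDL replicate 1 or 2 or SSM2 replicate 1 or 3, with adjusted p from 0.0527 to 0.0714. It also did not pass with NDL and SSM2 alone (adjusted p = 0.0781).

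The TspanC8 group, Tspan5, Tspan10, Tspan14, Tspan15, Tspan17 and Tspan33, carries the sheddase Adam10 out of the endoplasmic reticulum and steers which substrates it cuts. Its 6 members showed different orders of the lines. Tspan15 (feature 10369531), which directs Adam10 towards N-cadherin, stood at 9.19, 9.91 and 10.16 in NDL, 8.80, 8.60 and 8.62 in Met1, and 6.73, 6.37 and 6.74 in SSM2. The lines again did not overlap, in the order NDL, Met1, SSM2. Tspan15 was 8.82-fold higher in NDL than in SSM2 (log2 difference 3.14, SE 0.24, adjusted p = 9.33e-05) and 4.16-fold higher in Met1 than in SSM2 (2.06, SE 0.24, adjusted p = 0.00105). Between NDL and Met1 it was 2.12-fold higher in NDL (1.08, SE 0.24, adjusted p = 0.0138), and this did not pass without Met1 replicate 2 (adjusted p = 0.0526) or Met1 replicate 3 (adjusted p = 0.0512).

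Tspan5 (feature 10496494), a TspanC8 member linked to Notch activation through Adam10, stood at 8.42, 8.50 and 8.56 in NDL, 10.21, 9.87 and 10.09 in Met1, and 7.17, 6.68 and 8.05 in SSM2. Met1 was highest and SSM2 lowest, without overlap. Met1 was 6.75-fold above SSM2 (log2 difference 2.75, SE 0.30, adjusted p = 0.000789) and NDL 2.95-fold below Met1 (-1.56, SE 0.30, adjusted p = 0.00745). NDL was 2.29-fold above SSM2 (1.19, SE 0.30, adjusted p = 0.0277), a call that ended without NDL replicate 1 or 2 or SSM2 replicate 1 or 2 (adjusted p from 0.0598 to 0.0792). This call also ended with NDL and SSM2 alone (adjusted p = 0.0845).

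Tspan17, another carrier of Adam10, had its highest mean in SSM2 and stood at 6.20, 6.69 and 5.79 in NDL, 7.00, 6.81 and 6.39 in Met1, and 7.31, 7.31 and 6.90 in SSM2. Its NDL arrays were all below those of SSM2, and Met1 overlapped both. NDL was 1.92-fold below SSM2 (log2 difference -0.94, SE 0.25, adjusted p = 0.0365). The call ended without NDL replicate 1, Met1 replicate 1 or 2, or SSM2 replicate 1 or 2, with adjusted p from 0.0512 to 0.109. It also ended with NDL and SSM2 alone (adjusted p = 0.077). Tspan14, Tspan33 and Tspan10 passed in none of the comparisons. Their differences with all arrays ran from -0.06 (Tspan10, Met1 minus SSM2) to 0.45 (Tspan33, NDL minus SSM2). In Tspan33, SSM2 replicate 3 stood at 6.95 against 5.46 and 5.49 in the other SSM2 arrays, and without it NDL was higher than SSM2 (0.94, adjusted p = 0.00589). In Tspan14, SSM2 replicate 3 stood at 8.78 against 10.08 and 10.15, and no comparison passed without it.

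Adam10 itself stood at 9.18, 8.31 and 10.13 in NDL, 9.91, 10.33 and 9.52 in Met1, and 11.75, 11.27 and 11.63 in SSM2. Every SSM2 array was above those of the other lines, whereas Tspan15 and Tspan5 were lowest in SSM2. Adam10 was lower than in SSM2 in NDL (log2 difference -2.34, SE 0.42, adjusted p = 0.00673) and in Met1 (-1.63, SE 0.42, adjusted p = 0.0381). Adam17, the related sheddase that does not use these carriers, had its highest mean in Met1 and was lower in NDL than in Met1 (-1.55, SE 0.33, adjusted p = 0.0117).

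**Figure D3:**
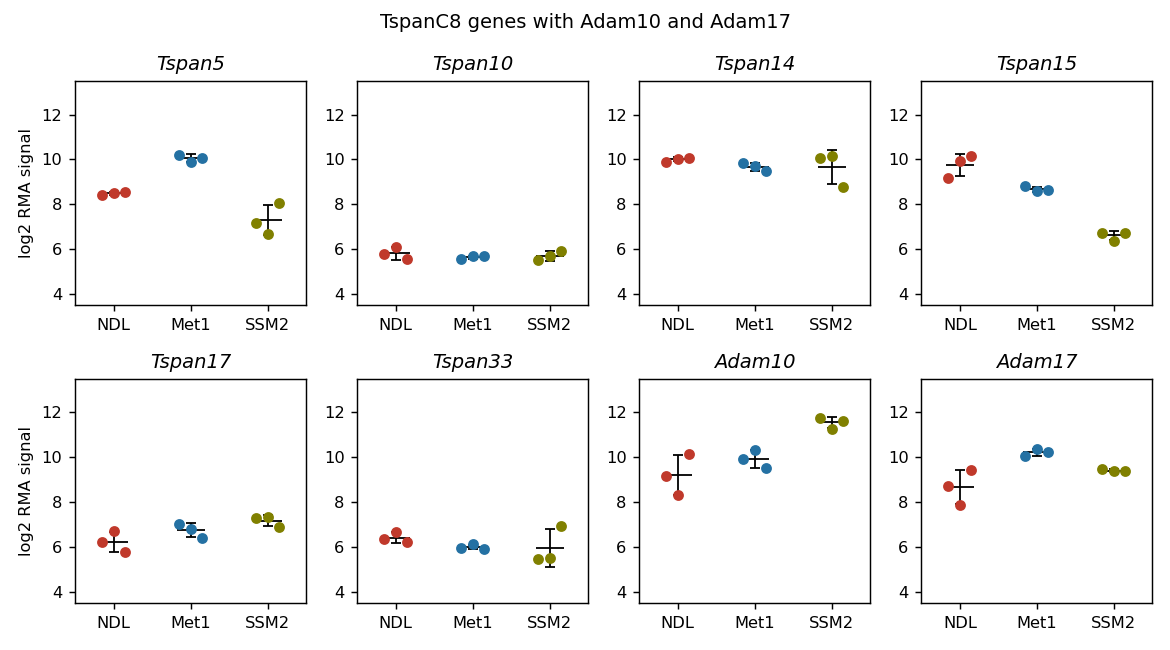
Log2 RMA signal of the 6 TspanC8 genes and of the sheddases Adam10 and Adam17, by line, with dots for the 3 arrays from replicate 1 to 3, dashes for the mean and bars for the SD. Tspan15 falls from NDL (mean 9.76) over Met1 (8.67) to SSM2 (6.61), Tspan5 peaks in Met1 (10.05), and Adam10 is highest in SSM2 (11.55).

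Tspan12 is the tetraspanin that joins the receptor Fzd4 and its co-receptor Lrp5 in signalling by the secreted ligand Norrin (Ndp). Tspan12 stood at 8.00, 7.26 and 9.20 in NDL, 8.06, 8.52 and 7.28 in Met1, and 7.70, 7.42 and 7.58 in SSM2. The lines overlapped, and no comparison passed (NDL minus SSM2 0.59, 95% interval from -0.49 to 1.67). Among its partners, Ndp and Fzd4 differed between lines. The ligand Ndp stood at 7.84, 7.51 and 7.53 in Met1 against 4.66, 4.69 and 4.23 in NDL and 3.95, 4.46 and 4.11 in SSM2, which lay below the 25th percentile of gene means. Ndp was higher in Met1 than in SSM2 (log2 difference 3.45, SE 0.18, adjusted p = 2.84e-05) and lower in NDL than in Met1 (-3.10, SE 0.18, adjusted p = 2.91e-05). Fzd4 was lower in NDL than in Met1 (-1.66, SE 0.29, adjusted p = 0.00512) and SSM2 (-2.12, SE 0.29, adjusted p = 0.00195), and Lrp5 passed in no comparison.

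Cd37, Cd53 and Tspan32 are tetraspanins of blood cells, Cd37 mainly of B cells, Cd53 of most leukocytes and Tspan32 of T cells, platelets and other haematopoietic cells. All had their highest mean in Met1. Tspan32 stood at 5.40, 5.68 and 5.42 in NDL, 6.42, 6.15 and 6.71 in Met1, and 5.83, 5.45 and 5.11 in SSM2, with Met1 above every array of the other lines. NDL was 1.90-fold below Met1 (log2 difference -0.93, SE 0.21, adjusted p = 0.0156), and Met1 was 1.95-fold above SSM2 (0.96, SE 0.21, adjusted p = 0.0191). Both calls ended without Met1 replicate 1 or 3, the first also without NDL replicate 1 and the second also without SSM2 replicate 2, with adjusted p from 0.0523 to 0.0686.

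Cd53 stood at 8.83, 8.96 and 8.44 in NDL, 10.12, 9.81 and 10.36 in Met1, and 10.42, 9.35 and 8.44 in SSM2. NDL and Met1 did not overlap, while SSM2 spanned both. The difference NDL minus Met1 was -1.36 (SE 0.43, adjusted p = 0.0612) with all arrays, and it passed without SSM2 replicate 1 (adjusted p = 0.0115) or replicate 3 (adjusted p = 0.0141). It also passed with NDL and Met1 alone (adjusted p = 0.00494). Without SSM2 replicate 1, Cd53 was also higher in Met1 than in SSM2 (1.20, adjusted p = 0.0418). Cd37 stood between 6.11 and 7.37 over all arrays and passed in no comparison. Of 4 leukocyte markers (Ptprc, Laptm5, Coro1a and Itgb2) all were measured, and the log2 of their summed signal lay between 11.63 and 11.90 in the Met1 arrays, against 10.35 to 10.99 for NDL and 9.70 to 11.37 for SSM2. Within SSM2 it was highest in replicate 1 (11.37) and lowest in replicate 3 (9.70), as were Cd53, Cd37 and Tspan32. Taken singly, none of the 4 leukocyte markers passed between NDL and Met1 (adjusted p from 0.0545 to 0.0858) or between NDL and SSM2. Laptm5 and Coro1a passed as higher in Met1 than in SSM2, and Ptprc and Itgb2 did not. Of 4 macrophage markers (Cd68, Adgre1, Csf1r and Fcgr1) all were lower in NDL than in Met1, with a summed signal of 10.16 to 11.10 against 11.94 to 12.22. The T cell markers (Cd3e, Cd3g and Cd2) had a summed signal of 7.97 to 8.53 in Met1. It was 7.31 to 7.96 for NDL and 6.73 to 7.82 for SSM2. Cd3g was lower in NDL than in Met1 (-1.32, adjusted p = 0.0224) and higher in Met1 than in SSM2 (1.52, adjusted p = 0.018). Cd3e and Cd2 passed in no comparison. The part of leukocyte content in these differences was not tested. Of 4 B cell markers 3 were measured, with a summed signal between 5.88 and 6.33 in all lines, and Ms4a1 and Cd79a lay in or near the range of the Y-linked genes.

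Cd9, Cd63, Cd81, Cd82 and Cd151 are the widely expressed members that partner integrins and mark extracellular vesicles. Among the 15 comparisons of these 5 genes 1 passed, where 19.1%, 16.9% and 11.8% of all genes passed in the 3 comparisons. Cd81 (feature 10559261), a partner of integrins and of immunoglobulin-type proteins, stood at 12.40, 12.59 and 12.95 in NDL, 11.74, 11.65 and 11.74 in Met1, and 11.60, 10.91 and 9.89 in SSM2. The lines did not overlap, in the order NDL, Met1, SSM2. Cd81 was 3.60-fold higher in NDL than in SSM2 (log2 difference 1.85, SE 0.37, adjusted p = 0.0115). Neither the step from NDL to Met1 (0.94, SE 0.37, adjusted p = 0.117) nor that from Met1 to SSM2 (0.91, adjusted p = 0.174) passed with all arrays, though both did without SSM2 replicate 1 (adjusted p = 0.0433 and 0.028). The first also passed without SSM2 replicate 3 (adjusted p = 0.0155) and with NDL and Met1 alone (adjusted p = 0.00797). With NDL and SSM2 alone, NDL minus SSM2 did not pass (adjusted p = 0.0509).

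Cd82, a metastasis suppressor in several carcinomas, stood at 11.70, 11.93 and 11.78 in NDL, 11.32, 10.93 and 11.29 in Met1, and 11.52, 11.12 and 10.02 in SSM2. Every NDL array was above all others, but no comparison passed (NDL minus SSM2 0.91, SE 0.33, adjusted p = 0.0951). Without SSM2 replicate 3 NDL minus Met1 passed (0.62, adjusted p = 0.028), as did NDL minus SSM2 without SSM2 replicate 1 (1.23, adjusted p = 0.0363). With NDL and Met1 alone, NDL minus Met1 passed too (adjusted p = 0.0249). Cd9, which binds the membrane form of the growth factor Hbegf, lay between 10.96 and 11.75 over all arrays. Its Met1 minus SSM2 difference was -0.48 (SE 0.14, adjusted p = 0.0638), and it was -0.61 and passed without Met1 replicate 2 (adjusted p = 0.0363). Cd151, the partner of laminin-binding integrins, lay between 9.89 and 10.63, and its 95% intervals stayed within -0.64 and 0.68 in all comparisons. Cd63, the member of late endosomes and vesicles, had intervals reaching from -1.27 to 1.28. In Cd63, NDL replicate 3 stood at 7.94 against 9.59 and 9.74 in the other NDL arrays.

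Upk1a and Upk1b are the tetraspanin subunits of urothelial plaques, which pair with Upk2 and Upk3a. Upk1b (feature 10439500) stood at 6.20, 8.06 and 6.31 in SSM2, against 5.22, 5.52 and 4.64 in NDL and 5.25, 4.91 and 5.06 in Met1. All SSM2 arrays were above the other lines, and replicate 2 carried the highest value. For Upk1b, NDL was 3.32-fold below SSM2 (log2 difference -1.73, SE 0.46, adjusted p = 0.0375) and Met1 3.44-fold below it (-1.78, SE 0.46, adjusted p = 0.0413). The NDL call ended when any 1 NDL or Met1 array was left out, and the Met1 call when NDL replicate 1 or 2 or any Met1 array was, with adjusted p from 0.0536 to 0.131. Without SSM2 replicate 2 the differences were -1.13 and -1.18, both still past the threshold. With the 2 lines of each comparison alone, neither passed (adjusted p = 0.106 and 0.0812). Upk1a lay between 5.17 and 5.77 and passed nowhere, nor did Upk2, Upk3a or Upk3b. Upk2 stood at 7.11, 6.68 and 6.12 in SSM2 and at 5.81 to 5.94 in Met1 (Met1 minus SSM2 -0.77, adjusted p = 0.0592).

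Of the remaining 7 members, Tspan2, Tspan3 and Tspan31 passed somewhere. Tspan2, known from myelinating cells and linked to cell migration, stood at 9.72, 9.90 and 9.20 in Met1, 7.76, 7.07 and 8.91 in NDL, and 7.63, 7.56 and 6.47 in SSM2. Met1 was above every other array, and NDL overlapped SSM2. Tspan2 was 5.21-fold higher in Met1 than in SSM2 (log2 difference 2.38, SE 0.48, adjusted p = 0.0143), a call that ended without Met1 replicate 1 (adjusted p = 0.0585) or replicate 2 (adjusted p = 0.0594). NDL was 3.23-fold below Met1 (-1.69, SE 0.48, adjusted p = 0.0414). This call ended without NDL replicate 1 or 2, any Met1 array or SSM2 replicate 2 (adjusted p from 0.0574 to 0.131).

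Tspan31, a gene once found co-amplified with its neighbour Cdk4 in sarcomas, stood at 10.92, 11.02 and 11.07 in NDL, 11.16, 11.02 and 10.96 in Met1, and 10.42, 10.36 and 10.25 in SSM2. The SDs of the lines were 0.08, 0.10 and 0.08, and SSM2 was below both other lines. The differences were small but passed in every fit with 1 array left out, at 1.58-fold between NDL and SSM2 (log2 difference 0.66, SE 0.10, adjusted p = 0.00319) and 1.63-fold between Met1 and SSM2 (0.70, SE 0.10, adjusted p = 0.00285). Tspan3, a broadly expressed partner of claudin-11, had the same order, at 11.39, 11.42 and 11.81 in NDL, 11.68, 11.66 and 11.80 in Met1, and 11.06, 10.58 and 10.63 in SSM2. It was higher in NDL than in SSM2 (0.79, SE 0.16, adjusted p = 0.0141) and in Met1 than in SSM2 (0.96, SE 0.16, adjusted p = 0.00668). With NDL and SSM2 alone, the first of these did not pass (adjusted p = 0.0574). Between NDL and Met1 neither gene passed, with 95% intervals from -0.27 to 0.18 for Tspan31 and from -0.55 to 0.20 for Tspan3.

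Tspan4, a component of migrasomes, Tspan9, a platelet member, Tspan11 and Tspan18, an endothelial regulator of calcium entry, passed in no comparison with all arrays. Tspan18 lay between 5.50 and 6.03 in all 9 arrays. Tspan9 stood at 8.92 and 9.18 in SSM2 replicates 1 and 2 but 7.46 in replicate 3. Without SSM2 replicate 3, Tspan9 was lower in NDL than in SSM2 (log2 difference -0.80, adjusted p = 0.01) and in Met1 than in SSM2 (-0.57, adjusted p = 0.0444).

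**Figure D4:**
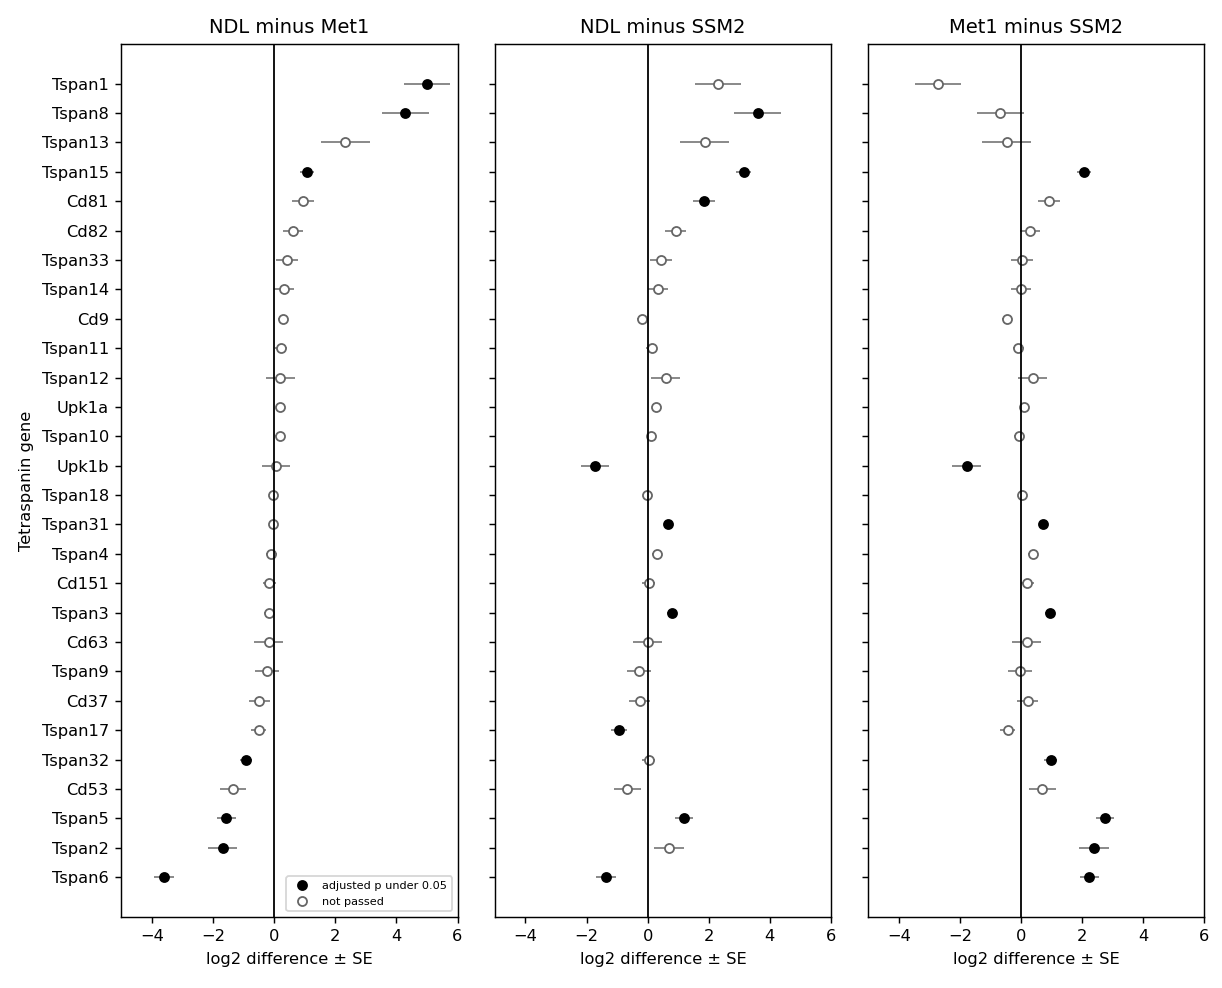
Log2 differences of all 28 tetraspanin genes in the 3 comparisons, as points with the SE as bars. Filled points passed at an adjusted p under 0.05 and open points did not. Tspan1, Tspan8 and Tspan15 lie to the right and Tspan6, Tspan2, Tspan5 and Tspan32 to the left between NDL and Met1, and 7 filled points lie to the right against 1 to the left between Met1 and SSM2.

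Of 28 partner genes, listed for known binding to tetraspanins, for acting beside them or for a role in vesicle release, 27 were measured. Between NDL and Met1, 8 were lower in NDL (Itga3, Itga4, Ptgfrn, Adam17, Hbegf, Fzd4, Ndp and Sdcbp), against 10.2% of all genes, and 1 was higher, Epcam, against 8.88%. Between NDL and SSM2, 5 were lower in NDL (Icam1, Adam10, Mmp14, Fzd4 and Sdcbp), against 7.52%, and none was higher, against 9.35%. Between Met1 and SSM2, Hbegf, Ndp and Cd44 were higher in Met1, against 7.1%, and Adam10, Mmp14 and Epcam were lower, against 4.71%. The list's medians were -0.59, -0.24 and 0.04, beside 0.06, 0.09 and 0.04 over all genes. Itga3, the integrin chain bound most tightly by Cd151, stood at 9.22, 8.91 and 8.77 in NDL and 9.79, 9.58 and 10.07 in Met1 (log2 difference -0.85, SE 0.18, adjusted p = 0.0116). Ptgfrn, a direct partner of Cd9 and Cd81, was lower by a smaller amount (-0.60, SE 0.11, adjusted p = 0.00577). Sdcbp, the syntenin adaptor that loads Cd63 into vesicles, was lower in NDL than in Met1 (-1.19, adjusted p = 0.0155) and SSM2 (-1.08, adjusted p = 0.0278), whereas Pdcd6ip, Tsg101, Rab27a and Rab27b, which act in vesicle formation and release, passed nowhere. The metalloprotease Mmp14 was higher in SSM2 than in Met1 (Met1 minus SSM2 -1.74, adjusted p = 0.00738). The 2 tetraspanin genes outside the naming rule, Prph2 and Rom1 of photoreceptors, passed in no comparison.

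The spread within lines was uneven. In SSM2 13 of the 28 members spanned more than 1 log2 unit between arrays, in NDL 5 and in Met1 2. The median SD of the members was 0.49 in SSM2, 0.23 in NDL and 0.17 in Met1, beside medians over all genes of 0.18, 0.20 and 0.11. NDL replicate 3 was the lowest array of its line for 11 members, against 52.1% of all genes, and the highest for 13, against 33.7%. SSM2 replicate 3 was the lowest array of its line for 16 members, against 33.9% of all genes, and SSM2 replicate 1 the highest for 16, against 39.6%. The fibroblast markers (4 of 4 measured) had their lowest SSM2 sum in replicate 3 as well, at 11.86 against 13.64 and 13.13, and the leukocyte sum was lowest there too, as given above. Their part in the spread of the tetraspanins was not tested.

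The counts of called members changed when single arrays were left out, and so did the share of all genes called in the same fit. Higher members between NDL and Met1 numbered 6 without SSM2 replicate 3 (9.86% of all genes) and 5 without SSM2 replicate 1 (8.8%), in place of 3 (8.88%). Lower members there numbered 2 in place of 4 (10.2%) without NDL replicate 1 (5.77%), Met1 replicate 1 (6.59%) or Met1 replicate 3 (6.19%). For the additional higher members the share of all genes thus stayed close to that with all arrays, while the losses came with a lower share.

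Between NDL and SSM2 the 3 lower members (7.52%) became 0 without NDL replicate 1 (3.4%), and 1 without NDL replicate 2 (4.46%), Met1 replicate 1 (5.26%), Met1 replicate 2 (5.31%) or SSM2 replicate 1 (5.1%). Between Met1 and SSM2 4 members were lower without SSM2 replicate 3 (Upk1b with Tspan1, Tspan13 and Tspan9, against 5.85% of all genes), in place of 1 (4.71%). None was lower without NDL replicate 1 (3.77%), NDL replicate 2 (4.78%), Met1 replicate 1 (2.67%) or Met1 replicate 3 (3.3%). With NDL replicates 1 and 2 left out, a check chosen after the data were seen, Tspan15 alone was higher and Tspan6 alone lower between NDL and Met1, against 4.88% and 3.66% of all genes. The NDL arm is then 1 array, assumed to vary like the other lines, and Tspan1 (4.83), Tspan8 (4.76) and Tspan5 (-1.49) kept differences near those with all arrays without passing.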

How the data were processed

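The authors deposited log2 signals made with RMA (oligo 1.40.2, per the submitters' processing notes), which corrects background, equalises arrays by quantiles and summarises probes. Per the labels' protocols, 100 ng of RNA, isolated with a kit made for fixed tissue, was converted to biotin-labelled DNA. No scan date was used, so batches were not examined, and the genome build is not given in the sources used here.

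Of 35556 features 21789 carried 1 symbol, of which 21698 matched RefSeq (GRCm38.p6) by Entrez ID. The feature with the highest mean stood for each of 19938 genes, with no filter on signal. The deposited values entered limma 3.58.1 as they were (R 4.3.3, lmFit and eBayes, 6 residual and 2.42 prior degrees of freedom) on all 9 arrays, with 3 contrasts between lines, tested two-sided with Benjamini-Hochberg adjustment over every gene measured. Errors of differences are model SEs and those of means are SDs. Marker sums add linear signals and take log2. Arrays have no read depth, and their number limits the precision.

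Alternatives were a filter at the median signal, cyclic loess, eBayes with trend and robust options, the mean of a gene's features, the replicate number as a block, 2 lines alone and each array left out. Members, lists and tests were chosen with earlier results of these data known. Every member is named, with values for all that passed and values or ranges for each role group, and partner genes where they passed. The fit was tested on simulated data. Figures used matplotlib 3.10.9 and pandas 2.3.3 (Python 3.11.15).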

Additional observations from a re-analysis of the deposited data

How the results depend on the processing

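Of the 24 calls of a tetraspanin gene in a comparison, 8 passed under all alternatives run, and no call changed direction. The 8 were Tspan15 and Tspan6 in 2 comparisons each, Tspan5 and Tspan3 between Met1 and SSM2, and Tspan31 in both of its comparisons. For Tspan6 1 of these is the NDL against Met1 difference, given as a description. Its other one, Met1 against SSM2, shares the Met1 arrays with that difference. With the filter at the median signal 22 members were tested, which left out Tspan32 and Upk1b among the called ones. Lower members between Met1 and SSM2 numbered 2 in place of 1 (4.71% of all genes) in 3 fits. These were an intensity trend with robust fitting (4.51% of all genes), cyclic loess (5.41%) and the replicate block (4.09%). With 2 lines alone, 6 members were higher between NDL and Met1, against 9.45% of all genes. Between NDL and SSM2, 2 were higher (5.42% of all genes, 9.35% in the main fit) and 0 lower (3.39%, 7.52% in the main fit). The calls of Cd81, Tspan3, Tspan5, Tspan6, Tspan8, Tspan17 and Upk1b ended there (adjusted p from 0.0509 to 0.106). Between Met1 and SSM2, 0 were lower (4.83%), as Upk1b did not pass (adjusted p = 0.0812). A fit with only NDL replicate 3 kept of the NDL arrays was chosen after the data were seen. Its NDL arm is 1 array, assumed to vary like the other lines, and its differences for Tspan1, Tspan8 and Tspan5 are given above. With each array left out in turn, higher members between NDL and Met1 ranged from 2 to 6 (5.86% to 16.9% of all genes) and lower from 2 to 5 (5.77% to 16.4%), lower members between NDL and SSM2 from 0 to 3 (3.4% to 15.2%), and lower members between Met1 and SSM2 from 0 to 4 (2.67% to 5.85%). The labels state no pairing, so the replicate numbers are not read as pairs. Same-numbered arrays of different lines correlated from -0.35 to 0.29 in their deviations from line means. With 3 arrays per line, whose deviations are tied to their own mean, these correlations cannot decide whether arrays were paired. The replicate block ended the call of Tspan2 between NDL and Met1 (adjusted p = 0.0833). It added Tspan1 between NDL and SSM2 (adjusted p = 0.0406) and between Met1 and SSM2 (adjusted p = 0.03). By construction, leaving out an array lowers the number of arrays and also changes the error, which is pooled over the lines fitted. Without SSM2 replicate 3 the NDL minus Met1 difference of Tspan13 stayed at 2.33, while its adjusted p in limma went from 0.0817 to 0.0017. Other causes of these changes were not tested. Genes near the 25th percentile of signal have differences of uncertain size.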
